A study of Mus musculus with 8 samples.

Results

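The DUSP MAP kinase phosphatases are dual-specificity enzymes that switch off MAP kinases. Here 10 of their genes were examined, found by symbol in both deposited tables, of the 53242 genes in those tables. They are Dusp1, Dusp2, Dusp4, Dusp5, Dusp6, Dusp7, Dusp8, Dusp10, Dusp14 and Dusp16, and all 10 passed the filter on low counts that left 14218 genes for testing. The group was chosen by the measured log2 difference between the genotypes, because Dusp8 stood apart from its relatives in it, so for the members that difference is given as a description, with no p, and the counts of members past the thresholds of the fit carry no weight as evidence.

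RNA came from splenic B cells of C57BL/6 mice aged 8 to 12 weeks, cultured for 24 h with 40 ng/ml IL4 on irradiated CD40LB feeder cells, which present CD40L and human BAFF and were afterwards depleted through their H-2Kd. Control mice were Eif4a1+/+ CD23-cre and 4A1 KO mice were Eif4a1fl/fl CD23-cre, with 4 libraries of each, so both genotypes carried the cre. This cre acts in B cells from the immature splenic stage onwards, and the loxP sites flank exons of Eif4a1, which encodes an RNA helicase of translation initiation. Replicates 1 and 2 were a male and a female of batch A, and replicates 3 and 4 a male and a female of batch B, in both genotypes. Replicate 1 of both genotypes was left out of the genotype fit because of its low viability, and its values stand beside the others.

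A MAP kinase is switched on by phosphorylation of a threonine and a tyrosine in its activation loop, and a DUSP removes both phosphates. Many DUSP genes are transcribed in response to the signal that their products then dampen, which makes them feedback inhibitors of ERK, JNK and p38 signalling. In lymphocytes this feedback limits how long antigen receptor, CD40 and cytokine signals last. Dusp1, Dusp2, Dusp4 and Dusp5 encode nuclear, inducible enzymes. Dusp6 and Dusp7 encode cytoplasmic enzymes directed at ERK. Dusp8, Dusp10 and Dusp16 encode enzymes directed at JNK and p38, and Dusp14 encodes a small enzyme without the MAP kinase-binding domain.

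The sequences upstream of the canonical start sites of Dusp8, Dusp1 and Dusp5 are shown because they hold matches to binding motifs of signal-responsive transcription factors, and Dusp8 is the member with the largest genotype difference. Each covers the 250 bases before the start in GRCm39, and capitals mark the matches: the cyclic AMP response element (CRE) in Dusp8, a CRE followed by an E-box in Dusp1, and a pair of adjoining CArG boxes in Dusp5.
Dusp8, chr7:141649053-141649302, minus strand: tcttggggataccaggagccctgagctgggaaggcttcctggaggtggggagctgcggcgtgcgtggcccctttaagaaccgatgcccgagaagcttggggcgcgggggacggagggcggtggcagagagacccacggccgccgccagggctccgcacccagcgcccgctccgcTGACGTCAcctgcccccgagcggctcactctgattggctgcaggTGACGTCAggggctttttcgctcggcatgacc
Dusp1, chr17:26727494-26727743, minus strand: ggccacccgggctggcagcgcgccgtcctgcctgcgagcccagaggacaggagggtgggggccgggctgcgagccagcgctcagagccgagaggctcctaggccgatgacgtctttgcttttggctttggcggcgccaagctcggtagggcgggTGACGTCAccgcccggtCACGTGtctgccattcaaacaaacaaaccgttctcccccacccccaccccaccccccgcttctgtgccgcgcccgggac
Dusp5, chr19:53517282-53517531, plus strand: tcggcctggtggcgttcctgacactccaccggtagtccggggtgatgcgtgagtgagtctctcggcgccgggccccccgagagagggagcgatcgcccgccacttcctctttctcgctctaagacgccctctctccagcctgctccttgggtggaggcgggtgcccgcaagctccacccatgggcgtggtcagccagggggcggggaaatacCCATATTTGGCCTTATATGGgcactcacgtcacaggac

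A window from 250 bases before to 50 bases after the start was searched on both strands in the 11436 tested protein-coding genes with a canonical transcript. The CRE, spelled TGACGTCA, is bound by CREB and ATF proteins. It was found in 3.38% of these promoters and in 2 members, at 1 place in Dusp1, 96 bases before the start, and at 2 places in Dusp8, 76 and 32 bases before it. At least 2 matches to the CRE were found in 15 of the 11436 promoters, or 0.131%, and Dusp8 was the single member among them. A share for 2 matches was computed for this motif alone, so it describes Dusp8 and carries no weight as evidence. The shorter core TGACG, which every CRE contains on both strands, was found in 30.9% of promoters and in 5 members, namely Dusp1, Dusp4, Dusp5, Dusp8 and Dusp16. The E-box CACGTG, bound by MYC and USF proteins, was found in 10.5% of promoters and in Dusp1, Dusp2 and Dusp7. The CArG box, bound by the serum response factor, was found in 1.33% of promoters and in Dusp5 alone of the members. The EGR site GCGTGGGCG was found in 1.12% of promoters and in Dusp10 alone of the members. No member held the AP-1 site TGACTCA, the TATA box TATAAA, the ETS core CCGGAAG, the NF-kB site or the STAT6 site in this window, and these were found in 3.53%, 7.84%, 16.8%, 10.1% and 5.82% of promoters. These matches describe letters and not occupied sites. Over the 250 bases shown, no annotated exon of the same strand lay within the Dusp8 and Dusp5 windows, and 13 bases of the Dusp1 window lay in such exons. Another annotated transcript of Dusp8 spanned its whole window, which thus lies in an intron of that transcript. The Dusp1 window was likewise spanned by 1 other Dusp1 transcript. Exons of antisense noncoding genes overlapped all 3 windows.

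Within the family, transcript levels spanned more than 2 orders of magnitude in control B cells. Levels were compared between genes in TPM, which is a value per transcript length as deposited. Dusp2, a phosphatase of activated lymphocytes, was highest, with a median of 88.3 TPM over the 4 control libraries and a range of 51.0 to 146 TPM. Dusp4 followed at a median of 45.9 TPM, and the ranges of Dusp2 and Dusp4 did not overlap. Below them the control medians were 25.3 TPM for Dusp10, 20.5 for Dusp16, 15.7 for Dusp1, 13.01 for Dusp5, 10.5 for Dusp7 and 9.76 for Dusp6. Among these, the neighbouring pairs Dusp10 and Dusp16, Dusp1 and Dusp5, Dusp5 and Dusp7, and Dusp7 and Dusp6 overlapped in their ranges over the 4 control libraries, and Dusp16 stood above Dusp1 in all 4. Dusp14 had a control median of 3.78 TPM, and Dusp8 was lowest at 0.527 TPM, below every other member in every control library.

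**Figure D1:**
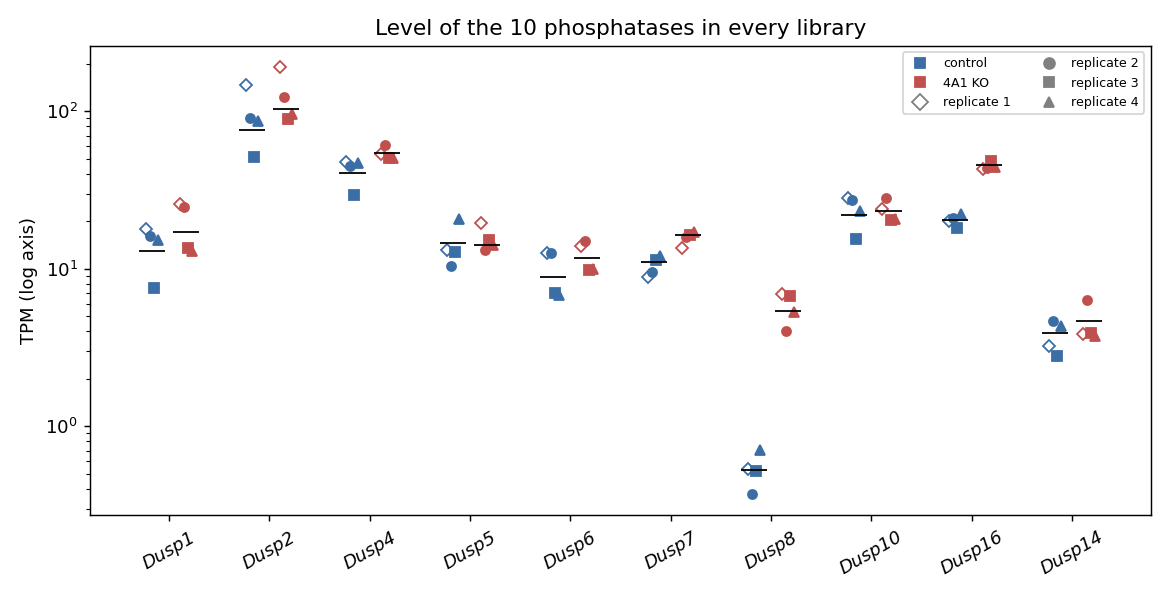
TPM of each phosphatase in every library on a log axis, with control in blue and 4A1 KO in red; symbols give the replicate, open diamonds are replicate 1, and black bars are means of replicates 2 to 4. Dusp8 lies at 0.702 TPM or less in all 4 control libraries and at 4.04 TPM or more in all 4 4A1 KO libraries.

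In 4A1 KO B cells the order was led by the same pair of genes, at medians of 109 TPM for Dusp2 and 52.0 TPM for Dusp4. Dusp16 was in place 3 at 44.2 TPM and no longer overlapped Dusp10, which was at 22.3 TPM. Dusp8 reached 6.02 TPM and was in place 9, above Dusp14 in 3 of 4 libraries, with overlapping ranges. The place of some middle members depended on the measure of level: when reads per kilobase of annotated exons were computed from the counts, Dusp5 moved from place 5 to place 3 by the control means and from place 7 to place 4 by the 4A1 KO means. Dusp10 moved from place 3 to place 5 by the control means and from place 4 to place 6 by the 4A1 KO means. Dusp2, Dusp4, Dusp6, Dusp8, Dusp14 and Dusp16 kept their places in both genotypes. The levels themselves moved too. In control, the ratio of the level from counts to the deposited TPM ran from 0.511 for Dusp14 to 2.11 for Dusp5. Shares of the summed TPM thus depend on the measure.

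Eif4a1 itself had 30233 to 39038 counts in control libraries and 18827 to 29519 in 4A1 KO libraries, which did not overlap. Its counts cover the whole gene, including exons outside the loxP sites, so they do not measure the deletion alone. The 8 libraries held 31727557 to 43210858 counts, and the smallest was 4A1 KO replicate 1.

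Dusp8, whose product acts on JNK and p38, had 57, 37, 55 and 75 counts in control replicates 1 to 4 and 592, 403, 695 and 572 counts in 4A1 KO replicates 1 to 4. In TPM, the control libraries were at 0.537, 0.371, 0.517 and 0.702 and the 4A1 KO libraries at 6.90, 4.04, 6.71 and 5.33. Every 4A1 KO library lay above every control library, and the lowest 4A1 KO library was the female of batch A. The mean TPM over replicates 2 to 4 was 0.530 ± 0.166 (SD, n = 3) in control and 5.36 ± 1.33 (SD, n = 3) in 4A1 KO cells. In the edgeR fit with batch and sex, the log2 fold change of 4A1 KO over control was 3.36 ± 0.16 (SE), a fold of 10.3. Only 9 of the 14218 genes tested had a higher log2 fold change in this fit. The log2 difference within each pair of same-numbered libraries was 3.72, 3.51, 3.69 and 2.96 for replicates 1 to 4.

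Dusp16, also directed at JNK and p38, was the next in size. It had 2261, 2226, 1999 and 2520 counts in the control libraries and 3818, 4591, 5232 and 4991 in the 4A1 KO libraries. Both sets stood well apart, with every 4A1 KO library above every control library. Its log2 fold change was 1.18 ± 0.08 (SE), a fold of 2.27, and the mean TPM was 20.5 ± 2.14 (SD, n = 3) in control and 45.4 ± 2.19 (SD, n = 3) in 4A1 KO cells. From its far higher control level, its mean TPM differed by more between the genotypes than that of Dusp8. Dusp10, the third gene of this class, had 1737, 1652, 963 and 1369 counts in control and 1180, 1555, 1224 and 1298 in 4A1 KO libraries, which overlapped. Its log2 fold change was 0.10 ± 0.09 (SE), and 1 of 4 pairs was higher in 4A1 KO cells.

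Of the ERK-directed cytoplasmic members, Dusp7 had 609, 651, 795 and 849 counts in control and 741, 1036, 1093 and 1187 in 4A1 KO libraries. Scaled to library size, all 4 4A1 KO libraries were above all 4 control libraries, and the log2 fold change was 0.58 ± 0.08 (SE). Dusp6, a classical ERK feedback gene, had 772, 762, 419 and 417 counts in control and 691, 876, 583 and 614 in 4A1 KO libraries. Its libraries overlapped between the genotypes and fell into 2 levels by batch, yet each 4A1 KO library was above its own control in CPM, with a log2 fold change of 0.45 ± 0.09 (SE).

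Of the nuclear members, Dusp1, an immediate early gene that acts on p38 and JNK, had 768, 666, 357 and 605 counts in control and 1022, 917, 626 and 617 in 4A1 KO libraries, with a log2 fold change of 0.47 ± 0.14 (SE). Dusp2 had 4984, 3113, 1756 and 3005 counts in control and 5351, 4053, 2898 and 3248 in 4A1 KO libraries, with a log2 fold change of 0.45 ± 0.10 (SE). Both overlapped between the genotypes, and both had their smallest pair difference in replicate 4, at 0.05 for Dusp1 and 0.14 for Dusp2 on the log2 scale. Dusp4, which acts on ERK and JNK in the nucleus, had 2845, 2650, 1762 and 2864 counts in control and 2573, 3479, 2948 and 3085 in 4A1 KO libraries. Scaled to library size its libraries did not overlap, and its log2 fold change was 0.45 ± 0.10 (SE). Dusp5, an ERK-specific nuclear phosphatase, had 719, 564, 703 and 1137 counts in control and 861, 678, 812 and 786 in 4A1 KO libraries. It was higher in 4A1 KO cells in 3 pairs and lower in replicate 4, and the log2 fold change was 0.02 ± 0.15 (SE). Dusp14, the small atypical member, had 91, 127, 80 and 125 counts in control and 96, 182, 112 and 117 in 4A1 KO libraries, which overlapped, with a log2 fold change of 0.35 ± 0.17 (SE).

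**Figure D2:**
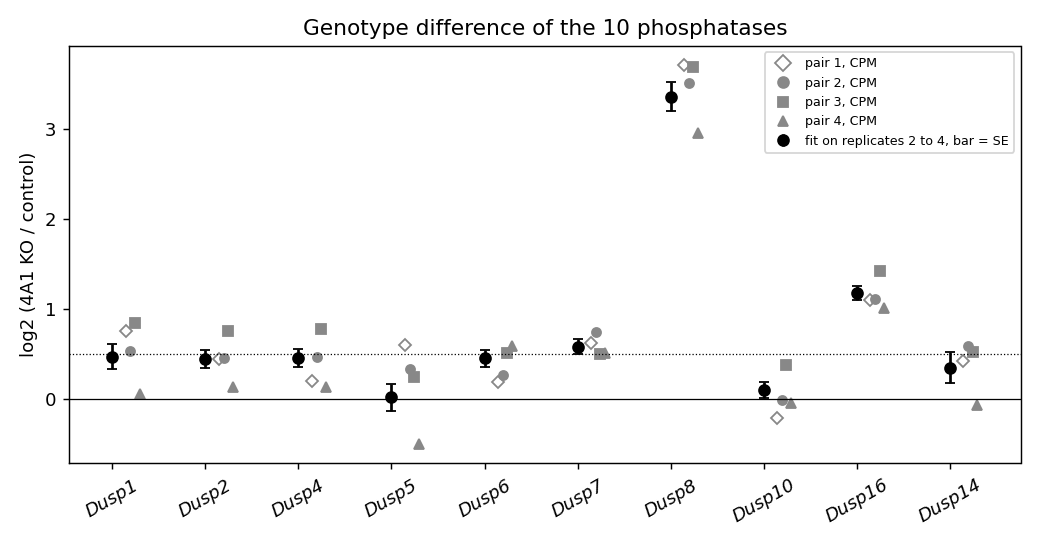
Log2 difference of 4A1 KO over control for each phosphatase: black points are the fit on replicates 2 to 4 with its SE, grey symbols the 4 pairs of same-numbered libraries in CPM, and the dotted line the threshold of 0.5. All 4 Dusp8 pairs lie at 2.96 or more, and the highest pair of any other member is at 1.42.

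All 10 fitted values were positive, from 0.02 for Dusp5 to 3.36 for Dusp8, where 50.6% of all genes tested had a positive value. The median of the 9 members other than Dusp8 was 0.45 on the log2 scale, Dusp8 lay 2.91 above it, and the median of all genes tested was 0.01. Leaving out Dusp16 in the same way placed that gene 0.73 above the median of its 9 relatives. Dusp7, Dusp8 and Dusp16 passed both thresholds used to call a gene, which were 0.05 for the adjusted p and 0.5 for the size of the log2 fold change, and no member was called lower. Over all genes tested, 11.6% were called higher and 13.7% lower. In all, 7 of 10 members were past the adjusted p alone on the higher side, as were 26.3% of all genes. In Dusp1, Dusp2, Dusp4 and Dusp6 the log2 fold changes of 0.45 to 0.47 lay just under the threshold of 0.5, and that of Dusp7 just above it. The 4A1 KO libraries all exceeded the control libraries in CPM for Dusp4, Dusp7, Dusp8 and Dusp16, 4 of 10 members, against 17.3% of all genes tested. In TPM, by limma on log2(TPM + 1), Dusp7, Dusp8 and Dusp16 were called again, beside 8.42% of the genes tested. There the Dusp8 value was 2.04 ± 0.14 (SE), since the added 1 TPM lowers the change of a gene this low in control cells.

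The calls just under the threshold turned on single replicates. Without replicate 4, 7 members were called in place of 3, with Dusp1, Dusp2, Dusp4 and Dusp14 added at log2 fold changes of 0.68, 0.60, 0.62 and 0.56, while the share of all genes called higher was 12.1% in that fit and 11.6% with all 3 replicates. Without replicate 3, Dusp1, Dusp2 and Dusp4 were lower than in the fit of all 3 replicates, each at 0.30, and Dusp14 was at 0.27. Without replicate 2, Dusp6 was added at 0.55 and Dusp14 was at 0.21. Of all genes, 9.79% were called higher without replicate 3 and 9.71% without replicate 2. With replicate 1 included, Dusp1 was added at 0.53, beside 11.4% of all genes called higher. Dusp8 stayed between 3.20 and 3.61 and Dusp16 between 1.07 and 1.27 whichever replicate was left out.

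The summed TPM of the 10 genes was 297, 237, 156 and 239 in control replicates 1 to 4 and 393, 335, 274 and 275 in 4A1 KO replicates 1 to 4. The sum was higher in the 4A1 KO library of every pair, although the groups overlapped. The 4 nuclear members made up 67.8 ± 3.19% (SD, n = 3) of this sum in control and 63.6 ± 2.31% (SD, n = 3) in 4A1 KO cells. The 3 JNK- and p38-directed members made up 20.6 ± 1.24% in control and 25.3 ± 2.36% in 4A1 KO cells (SD, n = 3). Within that class Dusp16 went from 9.94% to 15.6% of the family sum and Dusp10 from 10.4% to 7.80%. Dusp8, with the largest fold, was 0.261% of the family sum in control and 1.86% in 4A1 KO cells. The ERK-directed cytoplasmic members held 9.71% and 9.53%, with means of replicates 2 to 4 given throughout.

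**Figure D3:**
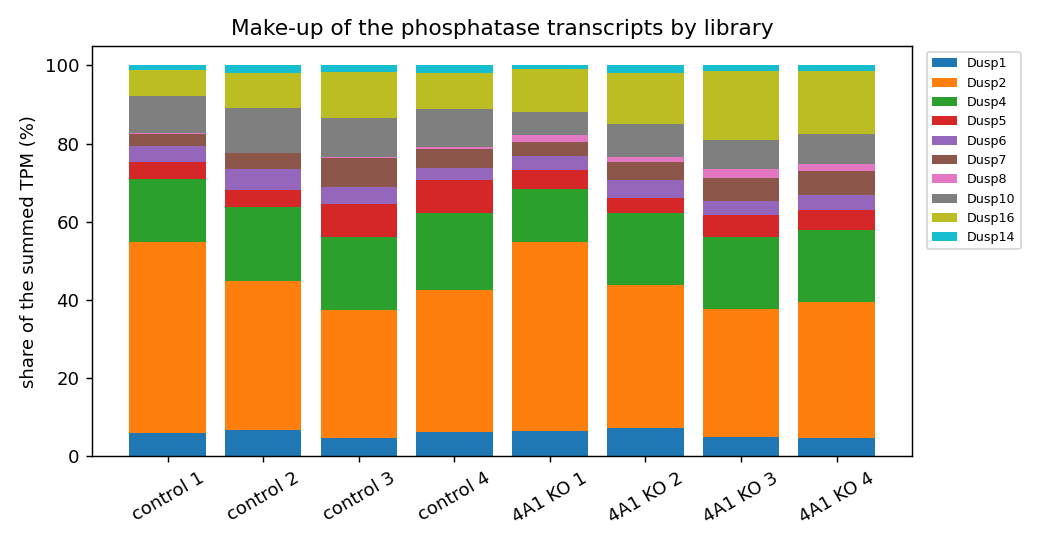
Share of the summed TPM of the 10 phosphatases taken by each gene, in percent, in each of the 8 libraries. Dusp2 is the largest share in every library and Dusp8 is a thin band in all of them, at most 2.45% in 4A1 KO libraries and at most 0.331% in control libraries.

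Batch was a contrast that played no part in the choice of the genes. Dusp1, Dusp2 and Dusp6 were called lower in batch B, and 3.33% of all genes tested were called in that direction. The batch fit kept replicate 1, the male of batch A that the genotype fit left out for low viability. The part of viability in these differences was not tested. In the fit of all 8 libraries with sex and genotype, the batch B minus batch A log2 difference was -0.85 ± 0.19 (SE) for Dusp2 (edgeR quasi-likelihood test, adjusted p = 0.0107). It was -0.79 ± 0.08 for Dusp6 (edgeR, adjusted p = 0.000407) and -0.79 ± 0.15 for Dusp1 (edgeR, adjusted p = 0.00553). Dusp10 had a difference of -0.50 ± 0.09, with an adjusted p = 0.00436 in edgeR, and missed the threshold of size by a small margin. Dusp7 differed the other way, by 0.21 ± 0.07 (edgeR, adjusted p = 0.0411), under the threshold of size. Dusp4, Dusp5, Dusp8, Dusp14 and Dusp16 did not pass the adjusted p for batch, at log2 differences of -0.30, 0.12, 0.20, -0.33 and -0.02.

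In CPM, Dusp6 ranged from 18.9 to 22.7 over the 4 libraries of batch A and from 9.57 to 14.4 over those of batch B. Dusp1 ranged from 16.5 to 32.3 in batch A and from 8.59 to 15.4 in batch B. Dusp2 ranged from 77.0 to 169 in batch A and from 42.3 to 75.9 in batch B. For these 3 genes and Dusp10, 4 of 10 members, every batch B library was below every batch A library, as was so for 5.19% of the genes tested. The summed CPM of 12 fibroblast markers moved the same way, from 16.8 to 43.4 in batch A and from 9.32 to 14.6 in batch B, and its part in the batch differences was not tested. This fit took the 8 libraries as separate, although each batch was 2 replicate numbers and same-numbered control and 4A1 KO libraries deviated together, so its p-values for batch and sex can be too small. When the counts of each replicate number were summed over the genotypes, a fit of 4 sums with 1 residual degree of freedom, Dusp6 at -0.77 (edgeR, adjusted p = 0.0194) and Dusp1 at -0.78 (edgeR, adjusted p = 0.0345) were called, and Dusp2 at -0.83 was not (edgeR, adjusted p = 0.0707). In that fit 276 of 14505 genes, or 1.9%, were called lower in batch B. There Dusp10 at -0.50 passed the adjusted p (edgeR, adjusted p = 0.0277) but not the threshold of size. Dusp7 at 0.22 no longer passed the adjusted p (edgeR, adjusted p = 0.13). The batch difference of Dusp1 was -0.48 without replicate 1 or 3, and not called, and -1.10 without replicate 2 or 4. That of Dusp2 was -0.31 without replicate 1 or 3, and not called, and -1.39 without replicate 2 or 4. Dusp10 was called at -0.60 without replicate 2 or 4. Dusp6 alone kept its call in each of the 4 fits that left out a replicate. With sex in the model, those without replicate 1 or 3 both compare replicate 4 with replicate 2. Those without replicate 2 or 4 both compare replicate 3 with replicate 1, so the 4 fits hold 2 comparisons. Of all genes, 1.98% were called lower in batch B without replicate 1, 3.04% without replicate 2, 1.91% without replicate 3 and 2.71% without replicate 4.

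No member was called for sex, where 2.43% of all genes were called. The largest differences were those of Dusp8, 0.43 ± 0.17 (SE) higher in males on the log2 scale (edgeR, adjusted p = 0.141), and Dusp14, with a male minus female log2 difference of -0.42 ± 0.15 (edgeR, adjusted p = 0.107). Both had an unadjusted p under 0.05, and they were the 2 of 10 members that did, beside 3603 of the 14211 genes tested. DESeq2 and the fit of summed replicate numbers both called 0 members, where they called 3.03% and 0.779% of all genes. Without replicate 3 and without replicate 4, 2 members were called for sex, Dusp2 and Dusp8, both higher in males, and the shares of all genes called were 3.15% and 3.96%. Without replicate 1 and without replicate 2, 0 members were called, with 0.113% and 0.154% of all genes. With batch in the model, the fits without replicate 3 or 4 both compare replicate 1, of low viability, with replicate 2. Those without replicate 1 or 2 both compare replicate 3 with replicate 4. The 4 fits are thus not separate checks.

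**Figure D4:**
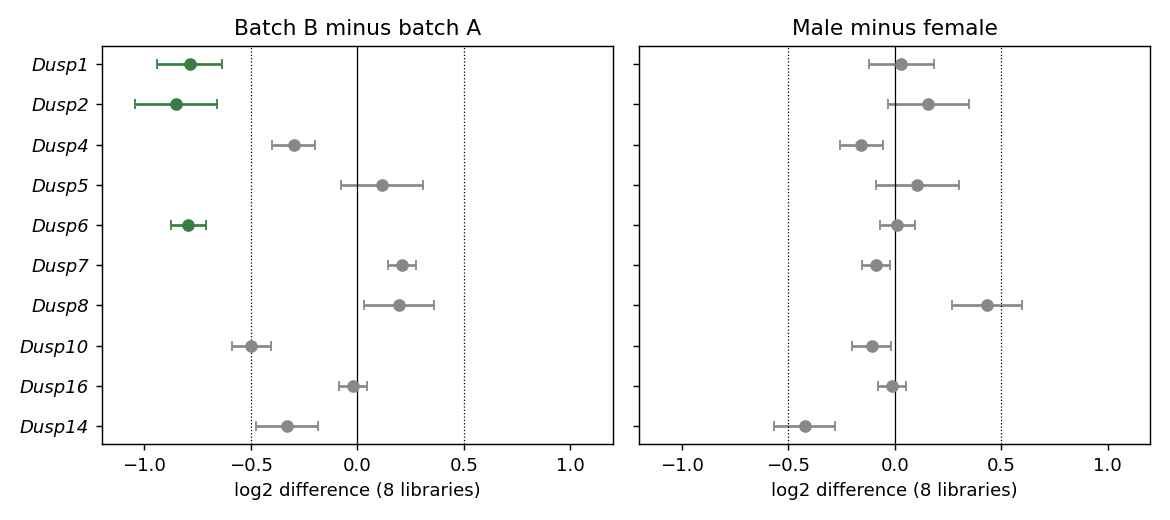
Fitted log2 difference between batch B and batch A (left) and between males and females (right) for each phosphatase over all 8 libraries, with bars of 1 SE, dotted lines at 0.5 either way and green points for called genes. Dusp1, Dusp2 and Dusp6 are called lower in batch B and no gene is called for sex.

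The genotype difference was compared between sexes and between batches through interaction terms, which the choice of genes did not use either. These fits kept replicate 1 too. For sex, 0 of 10 members passed an adjusted p under 0.05 in edgeR, as did 0% of all genes. An unadjusted p under 0.05 was found in 0 members and in 405 of the 14211 genes tested. For batch, 0 of 10 members passed, against 0.00704% of all genes. Here 1 of 10 members, Dusp6, had an unadjusted p under 0.05, beside 610 of the 14211 genes tested. DESeq2 called 0 members in both. The estimates ran from -0.08 to 0.59 on the log2 scale for sex and from -0.66 to 0.32 for batch. For Dusp8 the genotype difference in males minus that in females was 0.54 ± 0.33 (SE), and that in batch B minus that in batch A was -0.32 ± 0.36, beside its overall difference of 3.36, all on the log2 scale.

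The members also differed in gene structure. Dusp8 (ENSMUSG00000037887, GRCm39 chromosome 7, 141633226 to 141649580, minus strand) and Dusp16 (ENSMUSG00000030203, GRCm39 chromosome 6, 134692431 to 134784241, minus strand) have the longest canonical coding sequences of the family, at 1992 and 1983 bases. Both have 7 exons, where the other members have 3 or 4 and the median over 11436 genes was 9. Their 3′ UTRs, of 2371 and 2416 bases, are also the longest of the 10. Their 5′ UTRs differ. That of Dusp8 spans 485 bases with 78.4% GC, the highest GC of the family and above 93.5% of genes, and that of Dusp16 spans 820 bases with 53.9% GC, the lowest of the family. The AU-rich heptamer TATTTAT, a feature of short-lived mRNAs, occurs 3 times in the 3′ UTR of Dusp1, 2 times in that of Dusp8 and 1 time in that of Dusp2. It occurs in none of the other members and in the 3′ UTRs of 31.9% of genes. A published list of genes that rise early after B-cell stimulation, made on other data, holds 473 of the genes tested, or 3.33%, and 6 of the 10 members, namely Dusp1, Dusp2, Dusp4, Dusp5, Dusp8 and Dusp14. A list of genes that rise late holds 367 of the genes tested, or 2.58%, and Dusp14 alone of the members, which is thus on both lists.

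Sequences shared with other genes were sought by alignment of the transcripts. The search was one for near-identical stretches in canonical transcripts, and more diverged stretches were not sought. It found no match of 50 or more bases between any pair of members. The matches of 90% identity or more were to antisense genes at the same locus. The antisense gene in the table at the Dusp8 locus had 0 counts in every library, and the counting used strand. Another antisense gene, Gm73912, matches 127 bases of Dusp8 in full and was not analysed here, and the placement of single reads was not examined. For Dusp1, the antisense gene Ergic1 had up to 6338 counts in a library, more than Dusp1 itself. Within 200 kb of Dusp8 2 other genes were tested, Tollip and Mob2, and neither was called. Within 200 kb of Dusp16 7 were tested and 1 was called, the noncoding Lockd, which was lower.

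The 5 genes whose course over the 8 libraries was closest to that of Dusp8, by root mean square difference in log2 CPM around each gene's mean, were Gm5823, Dmwd, Gzmm, Gm18860 and Shc4. The differences were 0.283, 0.341, 0.503, 0.515 and 0.556. Gzmm encodes a granzyme of cytotoxic cells and Shc4 an adaptor of receptor tyrosine kinases. Among the family, Dusp16 was the closest to Dusp8, at 0.983, in place 72 of all genes tested, and Dusp7 followed in place 950. The genotype difference of these genes was 4.18 for Gm5823, 2.69 for Dmwd, 2.82 for Gzmm, 3.48 for Gm18860 and 2.49 for Shc4 on the log2 scale, and the measure of likeness contains that difference.

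Of the kinases that the phosphatases act on, Mapk3, which encodes ERK1, was at 37.8 ± 3.36 CPM in control and 27.1 ± 2.59 CPM (SD, n = 3) in 4A1 KO cells. Its log2 fold change was -0.48 ± 0.07 (SE), with an adjusted p = 0.000638 in edgeR, just under the threshold of size, which it passed at -0.53 with all 8 libraries and at -0.55 without replicate 4. The JNK genes Mapk8 and Mapk9 had log2 fold changes of 0.26 ± 0.06 (edgeR, adjusted p = 0.00686) and -0.03 ± 0.06 (edgeR, adjusted p = 0.657). The p38 gene Mapk14 had -0.18 ± 0.05 (edgeR, adjusted p = 0.02). Of 10 MAP kinases tested, 1 was called, Mapk11, a p38 gene that was lower by 0.59 ± 0.11 on the log2 scale (edgeR, adjusted p = 0.002). Nlk, an atypical MAP kinase, was at 0.45 ± 0.07 and not called.

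Of the 118 genes in 9 lists of the MAP kinase pathway, 114 were in the tables and 100 were tested. Of these, 19 were called higher and 12 lower in 4A1 KO cells, or 19% and 12%, beside 11.6% and 13.7% of all genes, and their median log2 fold change was 0.10. SPRY and SPRED genes, which encode feedback inhibitors of receptor and RAS signalling, had the highest median, 1.03, with 4 of 6 tested genes called higher and none lower. Spred1 rose by 0.92 ± 0.09 (SE) on the log2 scale (edgeR, adjusted p = 6.3e-05), from 17.1 to 32.3 CPM, in 4 of 4 pairs. Spry4 rose by 1.83 ± 0.22 (edgeR, adjusted p = 0.000186) and Spry2 by 1.15 ± 0.17 (edgeR, adjusted p = 0.000577), both from control means near 1 CPM or below, at 0.575 and 1.25 CPM. Spry4 was higher in 4 of 4 pairs and Spry2 in 3 of 4. In control replicate 1, which is not in those means, Spry4 was at 1.97 CPM and Spry2 at 2.27 CPM, so both genes overlapped between the genotypes over the 8 libraries, and their log2 fold changes with all 8 were 1.57 and 0.84. The other called gene of the list was Spry1.

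**Figure D5:**
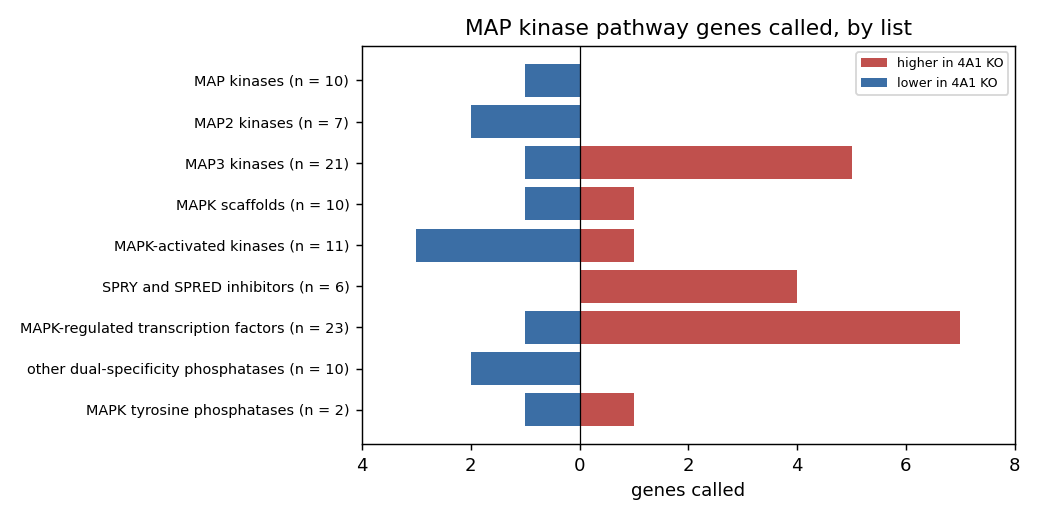
Number of genes called higher (red, right) and lower (blue, left) in 4A1 KO cells in each of 9 lists of MAP kinase pathway genes, with the number tested in each list in parentheses. The SPRY and SPRED list has 4 of 6 called higher and the MAP2 kinase list 2 of 7 called lower.

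Among MAPK-regulated transcription factors, 7 of 23 were called higher and 1 lower. Egr2, an immediate early zinc finger factor, rose by 1.23 ± 0.10 (edgeR, adjusted p = 2.78e-05), from 59.2 to 134 CPM, and Atf7, a CRE-binding factor, by 0.86 ± 0.06 (edgeR, adjusted p = 1.93e-05). Jund, an AP-1 subunit, fell by 0.51 ± 0.05 (edgeR, adjusted p = 5.04e-05), and this call was lost under 3 of the alternatives. Of 21 MAP3 kinases, 5 were called higher and 1 lower. Taok1 rose by 0.79 ± 0.06 (edgeR, adjusted p = 2.36e-05), Map3k10, a kinase upstream of JNK, by 0.83 ± 0.09 (edgeR, adjusted p = 7.69e-05) and Braf, upstream of ERK, by 0.60 ± 0.07 (edgeR, adjusted p = 0.000193). Braf was higher in 4 of 4 pairs but overlapped between the genotypes, with 4A1 KO replicate 1 at 58.1 CPM and control replicate 4 at 60.8 CPM. The other MAP3 kinases called were Map3k5 and Map3k9, higher, and Map3k8, lower. Of 7 MAP2 kinases, 0 were called higher and 2 lower, and both are activators of p38. Map2k6 fell by 0.98 ± 0.11 (edgeR, adjusted p = 0.000106) and Map2k3 by 0.56 ± 0.08 (edgeR, adjusted p = 0.000336), although Map2k3 was at -0.46 and not called without replicate 2. Map2k7, which activates JNK, was at 0.31 ± 0.06 and not called.

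Of 11 MAPK-activated kinases, 1 was called higher and 3 lower. Mknk2, a kinase of the cap-binding protein EIF4E, fell by 0.83 ± 0.06 (edgeR, adjusted p = 1.71e-05), from 439 to 246 CPM. Mapkapk5 rose by 0.89 ± 0.06 (edgeR, adjusted p = 1.71e-05), and Rps6ka4, at -0.45 ± 0.06, was not called. Rps6ka1 and Rps6ka5 were the others called lower. Of 10 scaffolds, 1 was called higher and 1 lower. Tab3 rose by 0.68 ± 0.08 (edgeR, adjusted p = 0.00012), and Mapk8ip3 and Tab2 were both at 0.44 and not called. Ksr2 was the scaffold called lower. Spry1, Map3k5, Map3k8, Map3k9, Rps6ka1, Rps6ka5 and Ksr2 are named after their values were seen. Both tested tyrosine phosphatases of MAP kinases were called: Ptpn7, abundant in lymphocytes, fell by 1.05 ± 0.11 (edgeR, adjusted p = 9.6e-05), from 56.6 to 27.7 CPM, whereas Ptpn5 rose by 1.40 ± 0.41 (edgeR, adjusted p = 0.0191) at under 1 CPM on average, a call that 4 of the alternatives removed, with a value of 0.74 without replicate 3.

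Of the other dual-specificity phosphatases, 10 of 14 in the tables were tested, and 0 were called higher and 2 lower. Dusp19, an atypical phosphatase, had 145 to 222 counts in control and 68 to 152 in 4A1 KO libraries and fell by 0.89 ± 0.16 (edgeR, adjusted p = 0.0016). Dusp9, the cytoplasmic relative of Dusp6 and Dusp7, had 19 to 32 counts in control and 10 to 19 in 4A1 KO libraries, with a log2 fold change of -0.96 ± 0.32 (edgeR, adjusted p = 0.0315), a call that 5 of the alternatives removed. Dusp3, Dusp11, Dusp12, Dusp18, Dusp22, Dusp23, Dusp28 and Styx were not called, the last at 0.18 ± 0.09. Dusp15, Dusp21 and Dusp26 had 0 counts in every library.

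The 8 B-cell markers were abundant in every library, at a summed 3748 to 3988 CPM in control and 3118 to 3380 in 4A1 KO libraries. Of these, 4, namely Cd79a, Cd79b, Cd22 and Blk, were called lower in 4A1 KO cells, the others not. The 8 T-cell markers summed to 1.19 to 2.38 CPM in control and 1.26 to 1.77 in 4A1 KO libraries, with Cd3g at 0. The 8 macrophage and neutrophil markers summed to 4.09 to 8.14 and 7.31 to 8.97 CPM, with S100a8 and S100a9 at 0 and Adgre1 called higher. The 12 fibroblast markers, which the feeder cells could bring, summed to 9.32 to 43.4 and 14.5 to 27.3 CPM, with Postn and Lum at 0, Fn1 called higher and Col3a1 lower. Their part in the phosphatase differences was not tested. In bulk RNA of the purified cells, a change in the cells that express a gene and a change in RNA per cell cannot be told apart.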

How the data were processed

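RNA-seq libraries of B cells purified from 8 mouse cultures were analysed from 2 deposited tables. Per the labels and the study's methods, the authors trimmed reads with Trim Galore 0.6.6, mapped them to GRCm39 with HISAT2 2.1.0 and deposited raw counts over merged mRNA isoforms, counted with strand, and TPM from StringTie 2.1.1. The handling of multi-mapping reads is not given in the sources used here. Counts per library were 31727557 to 43210858, and deeper libraries give less counting error for low genes such as Dusp8.

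The counts were fitted with edgeR 4.0.16 under R 4.3.3 (filterByExpr by genotype, TMM, two-sided quasi-likelihood tests with Benjamini-Hochberg adjustment) with batch, sex and genotype. Genotype fits used replicates 2 to 4, and sex, batch and interaction fits used all 8 libraries. For TPM, limma 3.58.1 was run on log2-transformed values with 1 added, in genes with a mean of at least 1. Scripts were tested on simulated data. CPM are TMM-scaled over all 8 libraries. In the 6 libraries batch and sex equal the replicate number as a block. This pairing comes from the labels, and same-numbered libraries correlated at 0.523 to 0.696 after subtraction of genotype means, other pairs at 0.0897 or less. Per the study's methods, replicates are individual mice. Sex and batch fits treat the libraries as separate, and a fit of 4 sums over same-numbered libraries was added after seeing the data.

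The members, gene lists, motifs and tests were chosen with earlier results of these data known. Named genes are the members, Mapk3, Mapk8, Mapk9 and Mapk14, the 3 tested genes with the smallest adjusted p in each pathway list and the 5 genes nearest to Dusp8 over the libraries, and a further gene of this rule is not reported here. Positions, transcripts and promoters were read from GRCm39 with GENCODE M39. Alternatives were other normalizations, DESeq2 1.42.0 with and without shrinkage, no filter, no replicate block, all 8 libraries and leaving out each replicate.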

Additional observations from a re-analysis of the deposited data

Results flagged for a closer look

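Within the groups of 4 libraries, 5 of 88 gene and genotype groups examined had a library standing apart by Dixon's 95% criterion for the gap to the nearest library over the range. Chance flags about 1 in 20 groups, or 4.4 of 88. Among the phosphatases this was Dusp14 in 4A1 KO cells, where replicate 2 was at 4.72 CPM and the nearest library at 3.04 CPM, a gap of 0.846 of the range. Spry2 in 4A1 KO cells also stood apart in replicate 2, at 4.02 CPM against 2.29 CPM for the nearest library, a gap of 0.878 of the range. Ptpn5 in 4A1 KO replicate 3 was at 1.28 CPM against 0.38 CPM, with a gap of 0.968 of the range. Map2k6 was high in control replicate 2, at 14.1 CPM against 9.83 CPM, with a gap of 0.876. Gm5823 was low in 4A1 KO replicate 4, at 4.62 CPM against 6.52 CPM, with a gap of 0.849.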

How the results depend on the processing

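The number of phosphatases called for genotype was 3 to 7 over the fits that left out replicate 2, 3 or 4, and 3 or 4 under the other alternatives. Pathway genes called were 25 to 33 with a replicate left out and 28 to 31 otherwise, against 31. In the fits without the replicate block, 3 phosphatases and 28 pathway genes were called, and 3 phosphatases in TPM, and no phosphatase changed its call. The distance of Dusp8 from the median of its relatives was 2.91 and became 2.35 under DESeq2 with normal shrinkage, which pulls values of low genes toward 0 by construction. With a replicate left out it was 2.87 to 3.01. In TPM 2 to 6 members were called with a replicate left out, against 3, beside 7.65% to 10.0% of all genes called higher. For sex 0 to 2 members and for batch 1 to 4 members were called with a replicate left out, fits added after seeing the data, against 0 and 3. In each of these fits the term rests on 1 replicate number against 1 other. Over summed replicate numbers, also added, 0 members were called for sex, beside 0.779% of all genes, and 2 lower in batch B, beside 1.9%, and the batch value of Dusp16 turned to 0.036. Interaction calls were 0 in every alternative run, where the main fits called 0% of all genes for sex and 0.00704% for batch. With so few calls over all genes, the absence of a call says little about the members.

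Dusp5 changed sign, to -0.0065 under shrinkage and -0.026 without the replicate block, and ran from -0.14 to 0.29 with a replicate left out, where Dusp10 ran from -0.030 to 0.18. For batch, with a replicate left out, Dusp5 ran from -0.28 to 0.51, Dusp8 from -0.12 to 0.54 and Dusp16 from -0.056 to 0.020. None of the reversed values was a call, and the cause was not tested. The named pathway genes kept direction in all alternatives, and 13 comparisons lost and 3 gained a call.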
